A study of Mus musculus with 282 samples.

Results

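Bone marrow cells in the hematopoietic stem cell (HSC) gate of mice were divided here by 1 transcript, Hspa5, which encodes the endoplasmic reticulum (ER) chaperone BiP (GRP78). The members were chosen by the measured Hspa5 level of each cell, in CPM (the reads of a gene scaled to a common total of reads on Ensembl genes). A cell was Hspa5-low under 10 CPM and Hspa5-high at 500 CPM or more. Of 282 sequenced cells, 232 were kept, having 100000 or more counts on Ensembl genes and 1000 or more such genes with a count. Among these, 43 cells were Hspa5-low, 137 were Hspa5-high and 52 lay between the cuts. The comparison thus used 180 of 232 kept cells. Every cell carried 1 condition: a bone marrow cell sorted as LSK CD48-/lo CD150+, the phenotype of primitive HSCs, from mice homozygous for rtTA at Rosa26 and for H2B-GFP at Col1a1, given no doxycycline. The animals numbered 6, were 12 to 22 weeks old and were used in 2 experiments. The labels name a library series (29 or 32), an HSC code and a plate for each cell but no animal, so the 6 combinations of series and code (HSC-3 and HSC-4 in series L29, HSC-2, HSC-3, HSC-4 and HSC-5 in series L32) served as replicates, called sets. P-values therefore reflect how much the sets vary, and that variation may be technical.

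BiP binds nascent and unfolded proteins in the ER lumen and keeps the stress sensors IRE1, PERK and ATF6 inactive while it is bound to them. When unfolded proteins accumulate, the sensors start the unfolded protein response (UPR), in which XBP1 and ATF6 raise the transcription of BiP and of many other folding, translocation and degradation factors of the ER. HSCs are known for low rates of protein synthesis and for sensitivity to disturbed protein folding.

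Among the promoter elements of UPR targets is the ER stress response element (ERSE), spelled CCAAT, 9 bases of any kind, then CCACG. NF-Y binds the ERSE at CCAAT, and ATF6 or XBP1 at CCACG. It was searched on both strands in RefSeq promoter windows of GRCm38.p6 (250 bases before to 50 after a gene's start). The element stood in 39 of 32851 windows (0.119%). It stood in the window of Hspa5 and in those of 8 of the 92 matched genes of 6 ER lists, namely Calr, Canx, Creld2, Derl3, Dnajc3, Hsp90b1, Pdia6 and Syvn1 (8.7%). Those lists hold known UPR targets. The lines give the 250 upstream bases of Hspa5, of 3 ER genes with the element that are described beside it, and of Pdia3, which held no match to these letters. The stretches are chr2:34771840-34772089 (plus strand) for Hspa5, chr10:86705445-86705694 (minus) for Hsp90b1, chr8:84846932-84847181 (minus) for Calr, chr12:17266339-17266588 (plus) for Pdia6 and chr2:121413652-121413901 (plus) for Pdia3. Capitals mark the ERSE, which begins at base -65 of Hspa5, at -212 and -107 of Hsp90b1, at -162 of Calr and at -98 of Pdia6, counted back from the gene's RefSeq start. The Calr match and the nearer Hsp90b1 match read on the opposite strand.
Hspa5: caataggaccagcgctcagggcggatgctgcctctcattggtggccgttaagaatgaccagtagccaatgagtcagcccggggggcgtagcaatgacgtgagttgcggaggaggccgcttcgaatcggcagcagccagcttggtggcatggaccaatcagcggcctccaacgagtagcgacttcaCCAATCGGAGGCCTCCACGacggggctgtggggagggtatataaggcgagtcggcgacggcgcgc
Hsp90b1: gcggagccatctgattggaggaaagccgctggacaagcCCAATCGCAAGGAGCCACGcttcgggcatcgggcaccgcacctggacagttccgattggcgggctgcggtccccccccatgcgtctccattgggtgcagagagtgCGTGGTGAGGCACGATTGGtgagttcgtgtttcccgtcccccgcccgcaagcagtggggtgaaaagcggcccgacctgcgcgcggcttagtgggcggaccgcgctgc
Calr: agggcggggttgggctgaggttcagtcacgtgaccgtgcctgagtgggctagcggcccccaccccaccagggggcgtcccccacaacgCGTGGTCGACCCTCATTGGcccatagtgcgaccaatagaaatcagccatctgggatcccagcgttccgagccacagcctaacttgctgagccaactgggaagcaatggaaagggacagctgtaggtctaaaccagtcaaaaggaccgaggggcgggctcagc
Pdia6: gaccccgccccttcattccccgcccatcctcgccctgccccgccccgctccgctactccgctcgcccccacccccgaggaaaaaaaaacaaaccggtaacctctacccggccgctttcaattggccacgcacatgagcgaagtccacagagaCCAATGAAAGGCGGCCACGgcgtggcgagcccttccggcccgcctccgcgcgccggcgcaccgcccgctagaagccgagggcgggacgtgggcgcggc
Pdia3: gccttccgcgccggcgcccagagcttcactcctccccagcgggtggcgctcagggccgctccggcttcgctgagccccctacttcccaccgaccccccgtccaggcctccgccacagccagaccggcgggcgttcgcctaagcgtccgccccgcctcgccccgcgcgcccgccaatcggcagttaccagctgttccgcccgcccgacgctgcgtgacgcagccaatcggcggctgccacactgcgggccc
A match describes the letters of the window and not the binding of a factor.

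Hspa5 (ENSMUSG00000026864, chromosome 2, 34771970 to 34777547, plus strand, mm10) defined the classes, so its levels are a description. In 32 of the 43 Hspa5-low cells the gene had 0 reads, and the highest value among them was 9.098 CPM. Hspa5-high cells had a median of 1085 CPM (507.6 to 4288) and of 290 reads. The cells between the cuts had a median of 316.7 CPM (14.13 to 498). Below the lower cut the nearest cells had 4.821, 8.02 and 9.098 CPM, and above it 14.13, 14.67 and 27.14 CPM. At the upper cut the neighbours were 487, 491 and 498 CPM below and 507.6, 510.5 and 532.2 CPM above. The gap at the lower cut was narrow in reads, since 10 CPM was 2.349 reads in the median Hspa5-low cell.

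**Figure D1:**
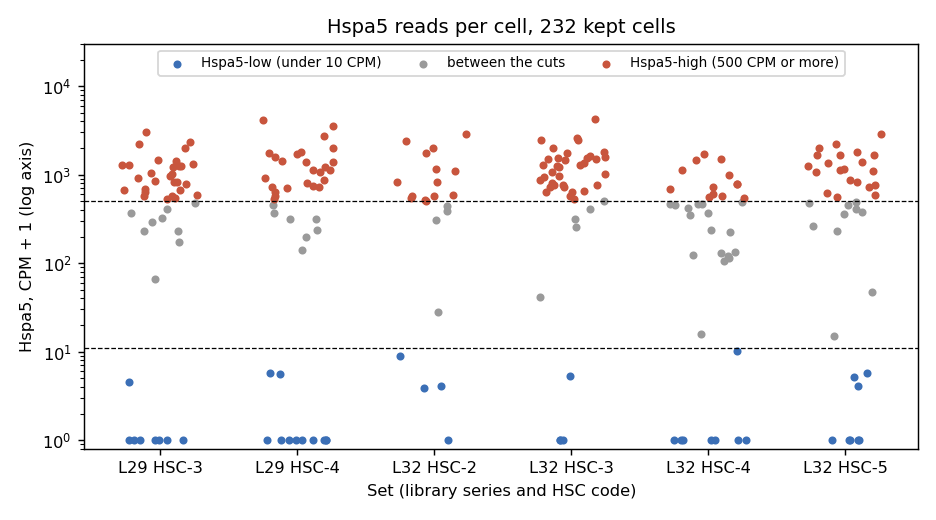
Hspa5 level of each of the 232 kept cells (CPM + 1, log axis) by set; dashed lines mark the cuts at 10 and 500 CPM, and colours the 3 classes. Every set held cells of all 3 classes, and 32 of the 43 low cells sit at 0 reads.

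Both classes occurred in every set. Hspa5-low cells made up 18.6% ± 5.5 (SD, n = 6 sets) of the kept cells, from 9.091% in L32 HSC-3 to 25.58% in L29 HSC-4. Hspa5-high cells made up 58.7% ± 14.8, from 34.21% in L32 HSC-4 to 79.55% in L32 HSC-3. The exact (Clopper-Pearson) 95% interval of the low share was 2.533% to 21.67% in L32 HSC-3 and 13.52% to 41.17% in L29 HSC-4. These intervals overlapped, and the sets were not tested against each other. Intervals cover counting error only. The sets L32 HSC-3 and L32 HSC-2 gave 4 low cells each, and the other sets 8 to 11.

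Hspa5 went undetected in more cells than most genes with a like number of reads. Its mean over the kept cells was 801.8 CPM, and 18.53% of the cells were under 10 CPM. Among the 122 other genes within 1.5 times of that mean, the median share of cells under 10 CPM was 4.957%, and 4 genes had a larger share than Hspa5 (Adgrl4, BC018473, Mycn and P4hb, which this comparison singled out). P4hb encodes protein disulfide isomerase, another folding enzyme of the ER. In series 32, 38 wells under the filter (HSC-2 and HSC-3) had fewer gene reads than spike-in reads and give a background. Their summed Hspa5 level was 124.8 CPM (77 of 616795 reads). In the 8 low cells of the same sets it was 2.402 CPM (6 of 2498090 reads), a value that the cut at 10 CPM keeps low by choice of the cells. The wells had a median of 8794 gene reads and these low cells 328900. The 2 levels in CPM are therefore not comparable, and do not place the low cells below the background in reads.

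Fewer genes were detected in Hspa5-low cells in every set, a difference that did not pass the adjusted test. The set medians of genes detected had a median of 4892 in low and 5294 in high cells, and the high median was the larger in 6 of 6 sets. The mean log2 difference was 0.19 ± 0.15 (SD, n = 6; exact sign-flip p = 0.03125, the smallest that 6 sets allow, and 0.125 adjusted over 4 measures). Gene reads per spike-in read, which follow the amount of RNA in the well, had medians of 14.8 and 17.24 (log2 difference 0.40 ± 0.41, higher in 5 of 6 sets, exact p = 0.0625, adjusted 0.125). Total gene counts differed by 0.14 ± 0.16 (4 of 6 sets, exact p = 0.125, adjusted 0.1667). The mitochondrial share differed by -0.90 percentage points ± 1.77 (lower in 4 of 6 sets, exact p = 0.34375, adjusted 0.3438). No measure passed 0.05 after adjustment.

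These differences were largest in both sets of library series 29, which was not tested. In L29 HSC-3 the median low cell had 4392 genes and 5.575% mitochondrial reads, and the median high cell 5921 genes and 3.714%. In L29 HSC-4 the values were 3823 genes and 9.443% against 4752 genes and 5.373%. In the 4 sets of series 32 the median numbers of genes differed by 0.07 to 0.14 on the log2 scale, and the mitochondrial shares of both classes lay between 2.76% and 3.816%. Of the low cells, 14 of 43 had over 6% mitochondrial reads, against 13 of 137 high cells, and all of these cells were in series 29. The part of RNA amount and cell quality in the gene differences was not tested. Medians from a fit with gene reads per spike-in read and mitochondrial share as added covariates are given in the last section. For the named genes of the ER lists, values of each series fitted alone are given for most.

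**Figure D2:**
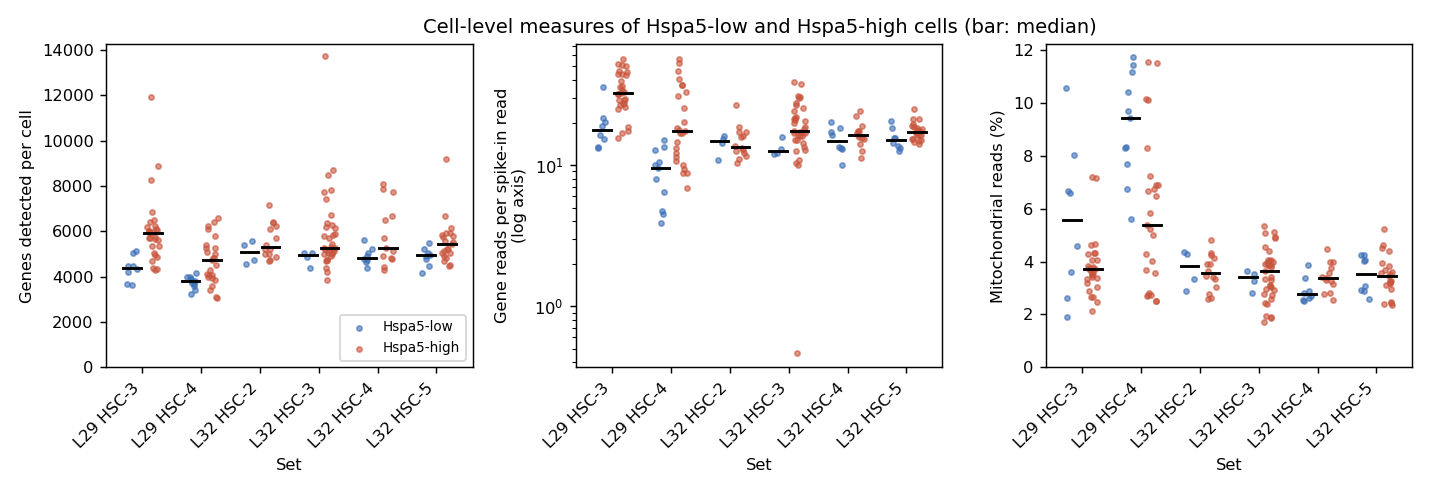
Genes detected, gene reads per spike-in read (log axis) and mitochondrial share of each Hspa5-low and Hspa5-high cell, by set, with bars at the class medians. The number of genes is larger in high cells in 6 of 6 sets, and the classes stand furthest apart in L29 HSC-3 and L29 HSC-4.

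For each gene other than Hspa5, the difference between high and low cells was estimated in every set on the log2(CPM/10 + 1) scale, given plate and genes detected, and the weighted mean of the 6 differences was tested with limma. None of 9762 genes passed a Benjamini-Hochberg adjusted p of 0.05 in either direction (0.0% called), and the lowest adjusted p in limma was 0.333. At an unadjusted p under 0.05, 685 genes (7.02%) were higher and 215 (2.2%) lower in Hspa5-high cells. edgeR on counts summed per set and class called 0 genes (631 at an unadjusted p under 0.05), and DESeq2 on the same sums called 1086, of which 1051 were higher. A difference of the same sign in 6 of 6 sets was seen for 348 genes on the higher side (3.56%) and 141 on the lower (1.44%). The differences below are therefore values that did not pass the test, read against these shares.

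Across the 6 ER lists (chaperones, isomerases, translocation, N-glycosylation, ER-associated degradation and UPR factors), 115 genes were found and 109 could be tested. Edem1, Edem3, Derl3, Eif2ak3, Ero1lb and Srp54a were under the detection filter. The mean difference was above 0 for 78 of the 109 and below 0 for 31, beside 56.1% and 43.9% of all genes. It was above 0 in 6 of 6 sets for 7 (6.42%, beside 3.56%) and below 0 in 6 of 6 for 2 (1.83%, beside 1.44%). The median difference was 0.24, against 0.05 over all genes. That reference was not matched for level. Genes of all kinds with a mean under 50 CPM had a median of 0.01, those from 100 to 200 CPM 0.14 and those from 200 to 500 CPM 0.24. On the plain scale the mean CPM was larger in high cells for 76 of the 109, beside 55.0% of all genes. The share of cells at 10 CPM or more was larger in high cells for 96 of the 109, but this held for 80.0% of all genes too. The set means of CPM did not overlap between the classes for 1 ER gene, Pdia3, which had the higher values in high cells, beside 0.86% of all genes.

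ER chaperones other than Hspa5 had a median difference of 0.48 over 18 genes, 15 of them above 0 and 2 in 6 of 6 sets. Calr (chromosome 8, 84841850 to 84846934) encodes calreticulin, the soluble lectin chaperone that holds newly glycosylated proteins. Its set means were 19.77, 130.7 and 244.2 CPM (lowest, median and highest) in low cells and 193.6, 307.6 and 384.5 CPM in high cells. High cells had the larger mean in 6 of 6 sets, but the ranges overlapped. Calr reached 10 CPM in 20 of 43 low cells (46.51%) and in 112 of 137 high cells (81.75%). Such shares, here and below, pool the cells of all sets, and were larger in high cells for 80.0% of all genes. The adjusted difference of Calr was 1.69 ± 0.40 (SE, limma p = 0.002125, adjusted 0.4266).

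Hsp90b1, the ER paralogue of HSP90 called GRP94, had set means of 108.1, 219.5 and 378.9 CPM in low and 339.6, 404.3 and 493.7 CPM in high cells. The mean was larger in high cells in 5 of 6 sets, with an overlap of the ranges. Its difference was 1.43 ± 0.37 (limma p = 0.003992, adjusted 0.4266). In series 29 alone it was 1.73 and in series 32 alone 1.00. Canx, the membrane-bound partner of calreticulin, was at 0.50 ± 0.25 with 4 of 6 sets above 0, and at 0.10 and 0.63 in the 2 series. Sdf2l1, a partner of the BiP co-chaperone Dnajb11, had set means of 0 to 35.88 CPM in low and 29.32 to 88.55 CPM in high cells and was above 0 in 6 of 6 sets (0.40 ± 0.16).

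Other members of the list include partners of BiP, described after their values were seen. The J-domain co-chaperones Dnajb9, Dnajb11 and Dnajc3 had differences of 0.81 ± 0.39, 0.22 ± 0.34 and -0.18 ± 0.49. The nucleotide exchange factor Sil1 was at -1.15 ± 0.32 (5 of 6 sets below 0, limma p = 0.00619, adjusted 0.4266), with set means of 34.84 to 270.6 CPM in low and 9.711 to 120.3 CPM in high cells. Hyou1, the other exchange factor, was at 0.24 ± 0.21. Cnpy4, of the canopy family of ER proteins, was below 0 in 6 of 6 sets (-0.66 ± 0.24), and Cnpy2 stood at 0.47 ± 0.37 with 3 of 6 sets above 0 (0.95 in series 29 alone and 0.08 in series 32 alone).

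Among the disulfide and proline isomerases the median was 0.28 over 19 genes, with 15 above 0 and 3 in 6 of 6 sets. Pdia3 (chromosome 2, 121413775 to 121438687) encodes ERp57, the oxidoreductase that works with calnexin and calreticulin. Its set means were 228.4, 498.2 and 776.9 CPM in low cells and 795.4, 936.3 and 1123 CPM in high cells. The lowest set of high cells lay above the highest set of low cells. It reached 10 CPM in 28 of 43 low and 126 of 137 high cells, a share larger in high cells for 80.0% of all genes. The difference was 2.08 ± 0.45 (limma p = 0.001225, adjusted 0.4266), and 1.32 in series 32 alone against 2.71 in series 29 alone.

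Pdia6 encodes P5, an isomerase bound to BiP complexes. It had set means of 99.6, 301.6 and 393.5 CPM in low and 363.8, 432.7 and 505.1 CPM in high cells. Its difference of 1.45 ± 0.45 was above 0 in 4 of 6 sets and came to 0.52 in series 32 alone, against 2.58 in series 29 alone. P4hb was at 0.89 ± 0.27 (5 of 6 sets), with 0.84 in series 32 alone. Pdia4 was at 0.34 ± 0.37. Fkbp2, a prolyl isomerase of the ER, and Qsox1, a sulfhydryl oxidase, were both above 0 in 6 of 6 sets (0.83 ± 0.26 and 0.39 ± 0.19). Txndc12, a thioredoxin-like protein of the ER, was at -0.77 ± 0.26 with 5 of 6 sets below 0.

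Genes for entry into the ER (22 tested, median 0.35) had 15 members above 0, 1 of them in 6 of 6 sets. Spcs2, a subunit of the signal peptidase that trims leader peptides, was at 0.95 ± 0.40, and Sec11c, a catalytic subunit of that enzyme, at 0.66 ± 0.23 with 6 of 6 sets above 0. Ssr2, Ssr3 and Ssr4 of the translocon-associated TRAP complex were at 0.79 ± 0.40, 0.54 ± 0.28 and 0.34 ± 0.42. In series 29 alone Spcs2 was at 1.68, Ssr2 at 1.41, Ssr3 at 0.85 and Ssr4 at 0.69. In series 32 alone they were at 0.24, 0.25, 0.14 and -0.09. Sec62, which aids entry after translation, ran the other way in 6 of 6 sets (-0.78 ± 0.21, limma p = 0.004495, adjusted 0.4266). Its set means were 136.9, 340.3 and 469.5 CPM in low and 107.9, 207.7 and 286.8 CPM in high cells, which overlapped.

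The N-glycosylation list (20 tested) had a median of 0.53, with 15 members above 0 and 1 in 6 of 6 sets. That member was Krtcap2, a subunit of the oligosaccharyltransferase that attaches glycans, at 0.78 ± 0.20. Its mean CPM was nevertheless larger in low cells (393.1) than in high cells (368.3), while the share of cells at 10 CPM was 79.07% and 94.89%. The log-scale difference thus had the sign of the difference in detection, and the mean level the opposite sign. Other subunits were at 1.08 ± 0.52 for Ddost, 1.10 ± 0.71 for the catalytic Stt3a and 0.48 ± 0.44 for Rpn2, each above 0 in 3 or 4 of 6 sets. In series 29 alone Krtcap2 was at 1.39, Ddost at 1.92, Stt3a at 1.35 and Rpn2 at 0.69, and in series 32 alone at 0.40, 0.31, 0.87 and 0.22.

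Degradation of ER proteins had a median of 0.14 over 19 genes, with none in 6 of 6 sets in either direction. Edem2, which trims mannose from misfolded glycoproteins, the scaffold Herpud1, the selenoprotein Selenok and the signal peptide peptidase H13 had differences of 0.19 ± 0.37, 0.05 ± 0.50, -0.04 ± 0.30 and 0.10 ± 0.46. The list's median was 0.32 in series 29 alone and -0.11 in series 32 alone, and all 4 genes were above 0 in series 29 alone (0.27 to 0.98) and below 0 in series 32 alone (-0.72 to -0.30).

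UPR sensors and factors had a median of -0.05, with 5 of 11 above 0. Xbp1 (chromosome 11, 5520659 to 5525893), the transcription factor that IRE1 activates by splicing, stood apart from its list at 1.94 ± 0.36 (5 of 6 sets above 0, limma p = 0.0004717, adjusted 0.4026). It reached 10 CPM in 16 of 43 low cells (37.21%) and 102 of 137 high cells (74.45%). That share was larger in high cells for 80.0% of all genes. The set means of 84.55, 455 and 718 CPM in low and 319.9, 476 and 1000 CPM in high cells overlapped widely, and the mean was larger in high cells in 4 of 6 sets. Fitted alone, series 29 gave 0.78 and series 32 gave 2.57. Gene counts do not separate spliced from unspliced Xbp1. Ern1, which encodes IRE1, the site-1 protease gene Mbtps1 and the NF-Y subunit Nfyb were at 0.20 ± 0.30, 0.17 ± 0.40 and -0.10 ± 0.19. Ern1 was at 0.79 in series 29 alone and -0.26 in series 32 alone. Atf6 was at 0.12 ± 0.29.

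**Figure D3:**
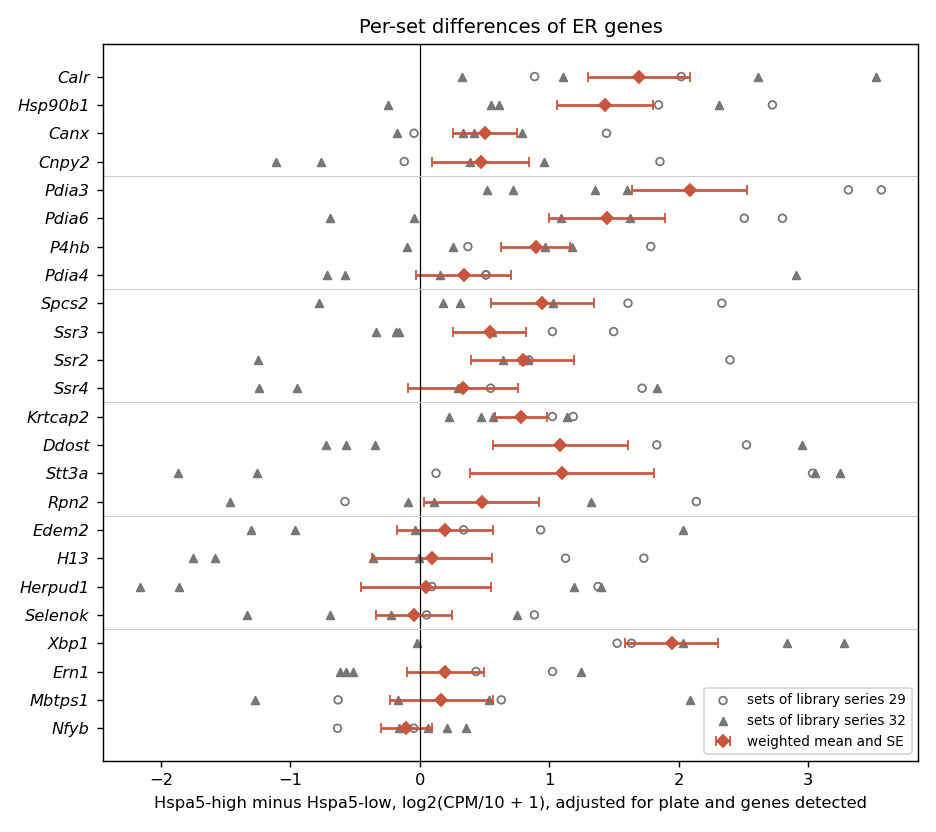
Difference between Hspa5-high and Hspa5-low cells on the log2(CPM/10 + 1) scale for 24 ER genes, 4 from each list in the order chaperones, isomerases, translocation, N-glycosylation, degradation and UPR factors. Grey marks are the 6 sets, and diamonds with bars the weighted mean and its SE; Calr, Pdia3 and Krtcap2 have all 6 sets above 0.

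Of the genes tested, 12 carried an ERSE in the promoter window. Their median difference was 0.31, beside 0.06 over the 6691 tested genes with a window. Above 0 were 9 of the 12, beside 56.1% of all genes tested. The 12 are not separate from the ER lists, since Calr, Canx, Creld2, Dnajc3, Hsp90b1, Pdia6 and Syvn1 belong to both. Xlr3a, Xlr3b and Xlr3c, also among the 12, are of the same gene family. The same sign in 6 of 6 sets was seen for 1 of the 12, Calr. Pdia3 and Xbp1, with the largest differences of the ER lists, had no match, and Dnajc3 and Syvn1, with a match, were at -0.18 ± 0.49 and 0.12 ± 0.23. Of the other motifs, the ERSE-II (ATTGG, any base, then CCACG) stood in 0.0365% of windows and its 7 tested genes had a median of 0.05. CCAAT alone stood in 37.4% of windows, and the 2855 tested genes with it had a median of 0.07. The core of the UPR element bound by XBP1, spelled TGACG followed at once by TGG, stood in 0.676% of windows, and its 71 tested genes had a median of 0.14. The motifs overlap, since every ERSE holds a CCAAT.

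Cells between the cuts were left out of the test and give a level of their own. The 38 chaperone and isomerase genes together had set means of 4032 to 5986 CPM in low cells (median 4713), 4894 to 6366 CPM in the cells between (median 5363) and 5683 to 6834 CPM in high cells (median 6342). The summed level was larger in high than in low cells in 6 of 6 sets, and the ranges overlapped. Summed over all 6 ER lists it was larger in high cells in 5 of 6 sets, and in L32 HSC-2 it was 16500 CPM in low and 15740 CPM in high cells. For the 38 genes, in L32 HSC-2 the cells between the cuts had the largest value (6366 CPM, against 5986 in its 4 low cells and 6224 in its high cells). These sums were not adjusted for genes detected. Of the 7 ER genes above 0 in 6 of 6 sets, 6 had a mean log2(CPM/10 + 1) in the cells between that lay between those of the other classes. The 7 were picked by their values in high and low cells, which favours such a place, and no share over all genes is given. For the 10 genes with the smallest p on each side, named below, the count was 8 on the higher and 7 on the lower side.

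**Figure D4:**
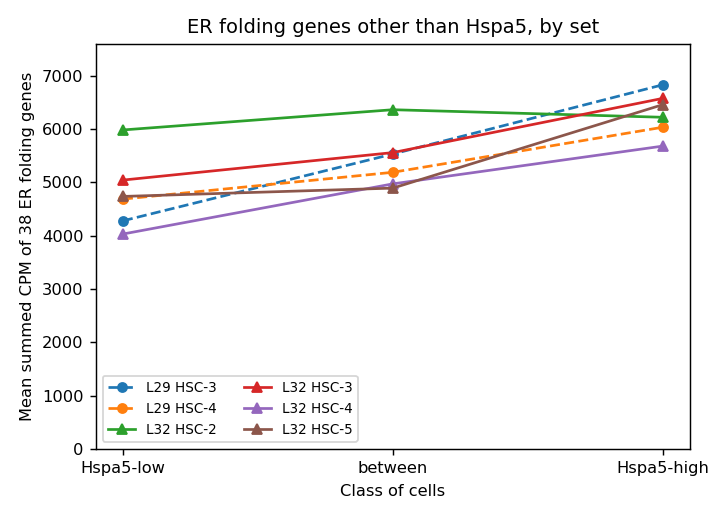
Mean summed CPM of 38 ER chaperone and isomerase genes, Hspa5 left out, in Hspa5-low cells, cells between the cuts and Hspa5-high cells, with 1 line per set. High cells lie above low cells in 6 of 6 sets, by the least in L32 HSC-2 (5986 and 6224 CPM).

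Genes of protein quality control outside the ER had medians above that of all genes too, and those of 2 lists, cytosolic heat shock chaperones and the CCT chaperonin, were above the largest ER list median of 0.53. Cytosolic heat shock chaperones stood at 0.66 (14 of 16 above 0, 4 in 6 of 6 sets), the CCT chaperonin at 0.90 (5 of 8), mitochondrial chaperones at 0.51 (7 of 8) and the proteasome at 0.42 (28 of 31, 4 in 6 of 6 sets). Hspa8, the constitutive HSC70, was at 0.49 ± 0.18 with 5 of 6 sets above 0. The subunits of the chaperonin were not alike: Cct3 was at 1.62 ± 0.26 and Cct4 and Cct5 at -0.35 ± 0.30 and -0.11 ± 0.28. Proteasome subunits Psma7 and Psmb1 were above 0 in 6 of 6 sets (1.55 ± 0.29 and 0.85 ± 0.31).

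Transport between ER and Golgi (COPII, COPI and KDEL receptors) had a median of 0.36 over 23 genes, the integrated stress response 0.26 over 18, and ribosome biogenesis and growth 0.39 over 24. Oxidative phosphorylation stood at 0.46 over 25 genes and S phase at 0.20 over 24. Lysosome and autophagy genes (0.19 over 21), interferon and MHC genes (0.11 over 22) and immediate early genes (0.11 over 11) were nearer to the median of all genes. The 2 members with the highest mean CPM of each list are given next. In transport they were the vesicle GTPase Arf4 (0.90 ± 0.42) and the cargo receptor Lman2 (0.35 ± 0.37), and in the stress response the amino acid transporter chain Slc3a2 (0.21 ± 0.58) and the tRNA synthetase gene Nars (0.95 ± 0.53). In growth they were the elongation factors Eef1a1 (0.22 ± 0.19) and Eef2 (0.32 ± 0.30), and in oxidative phosphorylation the ATP synthase subunits Atp5b (0.50 ± 0.48) and Atp5a1 (0.82 ± 0.42). In S phase they were Mcm6 of the replicative helicase (0.02 ± 0.39) and Rfc2 of the clamp loader (0.41 ± 0.31). Nars was at 2.19 in series 29 alone and -0.07 in series 32 alone, and Arf4 at 1.31 and 0.32. The 77 cytosolic ribosomal proteins had a median of -0.06, with 24 above 0, quiescence genes -0.05 over 10 and G2 and M phase genes -0.12 over 5. Txnip, which limits glucose uptake and is listed with quiescence, was below 0 in 6 of 6 sets (-0.56 ± 0.22), and Ndn, a growth suppressor of that list, was at 1.27 ± 0.41 with 5 of 6 above 0.

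The difference followed the number of reads of a gene in part. Genes with a mean under 50 CPM had a median of 0.01 (n = 4913), those from 50 to 100 CPM 0.08 (n = 2561) and those from 100 to 200 CPM 0.14 (n = 1427). From 200 to 500 CPM it was 0.24 (n = 663) and at 500 CPM or more -0.01 (n = 198). No difference between the ER lists and other genes was tested.

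**Figure D5:**
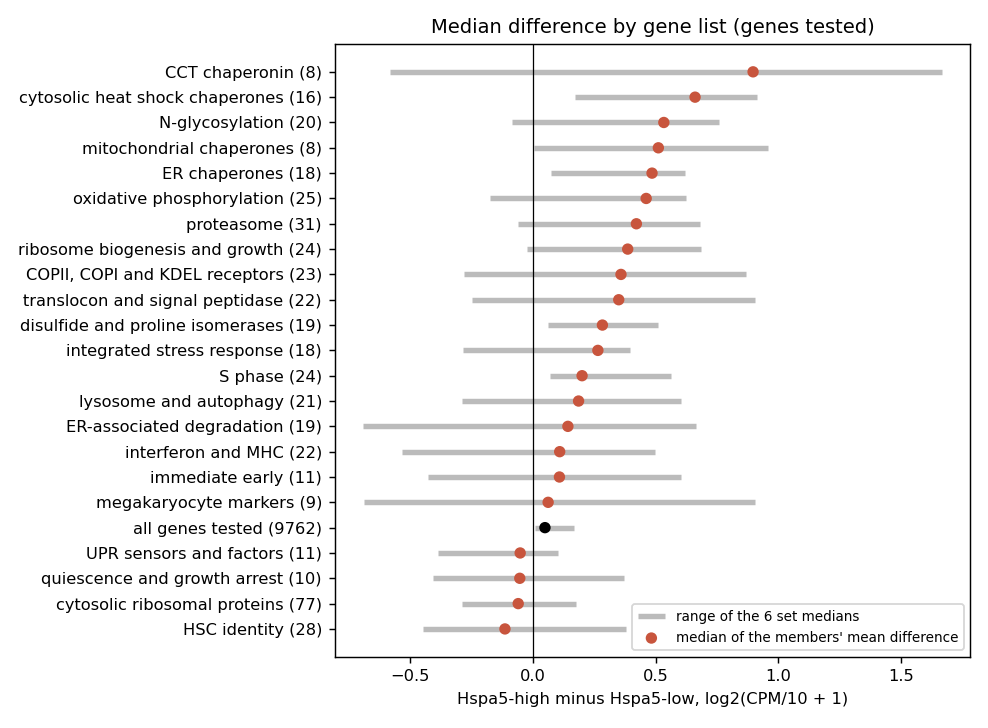
Median over each list's tested genes of the difference between Hspa5-high and Hspa5-low cells on the log2(CPM/10 + 1) scale, for lists with at least 8 tested genes (number in parentheses), with grey bars for the range of the 6 set medians. The CCT chaperonin and cytosolic heat shock chaperones lie above all ER lists, and all 9762 genes (black) lie at 0.05.

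The 10 genes with the smallest p on the higher side, none of which passed, were Cct3, Pycrl, Paics, Isg20, Cul1, Ptges3, Mcm7, Ywhag, Serpina3g and Xbp1. All but Xbp1 were above 0 in 6 of 6 sets. Cct3, a subunit of the chaperonin that folds actin and tubulin, had set means of 70.41, 237.3 and 424.1 CPM in low and 329.2, 473.5 and 566 CPM in high cells (limma p = 0.0001434, adjusted 0.333). Its difference was 0.68 in series 29 alone and 2.05 in series 32 alone. Paics, an enzyme of purine synthesis, had 136.3, 290 and 326.9 CPM in low and 461.9, 496.7 and 548.5 CPM in high cells, which did not overlap. The difference of Paics was 1.29 ± 0.22, with 1.06 in series 29 alone and 1.31 in series 32 alone.

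Ptges3, the HSP90 co-chaperone p23, was in 17 of 43 low cells and 111 of 137 high cells at 10 CPM. For 80.0% of all genes this share was larger in high cells. The set means of Ptges3 were 30.66 to 75.3 CPM in low and 94.28 to 210.3 CPM in high cells, without overlap (1.5 ± 0.26). Mcm7, of the replicative helicase, had 0 to 66.45 CPM in low and 90.84 to 168.2 CPM in high cells, without overlap (1.18 ± 0.20). Cul1, the scaffold of SCF ubiquitin ligases, had 0 to 170.8 and 173.5 to 296.4 CPM, again without overlap (1.25 ± 0.21). Pycrl of proline synthesis, the exonuclease Isg20 and the 14-3-3 protein Ywhag were at 1.04 ± 0.16, 1.21 ± 0.21 and 1.25 ± 0.22. Serpina3g, a protease inhibitor with near-identical copies whose reads may be split, was at 1.06 ± 0.20. Its partial Spearman z with Hspa5 over all kept cells was 0.0032, against 0.12 (Isg20) to 0.25 (Xbp1) for the others of the 10.

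On the lower side the 10 genes with the smallest p were Arfgef1, Vill, Adgrd1, Rcn2, Slc44a2, Phf21a, Cdadc1, Sidt2, Bclaf3 and Prkcq, from -0.73 ± 0.16 for Adgrd1 to -1.23 ± 0.31 for Sidt2. All but Vill were below 0 in 6 of 6 sets, and the adjusted p in limma was 0.4266 for each of the 10. Rcn2, which encodes a calcium-binding protein of the ER, had set means of 260.8, 287.2 and 516.6 CPM in low and 120.6, 191.7 and 258.3 CPM in high cells, without overlap (-0.86 ± 0.20). Prkcq, protein kinase C theta, had 133.1 to 229.1 CPM in low and 64.6 to 132.4 CPM in high cells, also without overlap (-1.06 ± 0.27). Phf21a, a subunit of a histone demethylase complex, had 65.21 to 139.2 and 8.004 to 51.83 CPM (-0.88 ± 0.21). Set means lower in high cells without overlap were seen for 7 of all 9762 genes (0.0717%). Adgrd1, an adhesion receptor, reached 10 CPM in 7 of 43 low and 12 of 137 high cells.

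Both classes carried HSC transcripts. The 28 HSC identity genes had a median difference of -0.11, with 12 above 0 and none in 6 of 6 sets. Their summed level was 6511 to 11920 CPM in the sets of low cells and 6607 to 8932 CPM in those of high cells. Kit, the stem cell factor receptor of the gate, had set means of 489.9 to 845.8 CPM in low and 422.2 to 592.9 CPM in high cells, and Slamf1, which encodes CD150, reached 10 CPM in 9 of 43 and 27 of 137. Angpt1, a ligand of Tie2, was at -0.86 ± 0.46 with 4 of 6 sets below 0.

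Markers of other cell types were summed per set, with no test. Plasma and B cell markers, of interest because antibody-secreting cells carry much BiP, summed to 2.28 to 244.4 CPM in the sets of low cells and 66.82 to 157.3 CPM in those of high cells. In low cells 9 of the 17, among them Cd79a, Ms4a1, Igkc, Jchain and Sdc1, had 0 reads, and in high cells 2 (Vpreb3 and Tnfrsf17), a count that covers 43 low but 137 high cells. Myeloid markers summed to 769.6 to 1556 and 911.4 to 1341 CPM, with Elane and Ctsg at 0 in both classes. Most of this came from Lyz2 (mean 696.3 CPM in low and 591.4 in high cells) and Prtn3 (509.6 and 402.5 CPM). Erythroid markers summed to 899 to 3066 and 1372 to 2955 CPM, with Car1 at 0 in both. Nearly all of this was Car2, with set means of 897.9 to 3064 CPM in low and 1313 to 2912 CPM in high cells. The globin gene Hbb-bt had means of 10.38 and 17.57 CPM. Megakaryocyte markers summed to 478.6 to 1853 and 650.9 to 1656 CPM, multipotent and lymphoid progenitor markers to 295.7 to 1232 and 553.8 to 806.2 CPM, and endothelial and stromal markers to 121.2 to 393 and 140.6 to 315.8 CPM. T and NK cell markers summed to at most 46.96 CPM in low and 24.61 CPM in high cells (set medians 1.068 and 11.18), and mast cell and basophil markers to at most 83.92 and 22.99 CPM (set medians 1.234 and 5.544). The ranges overlapped for all 8 of these lists.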

How the data were processed

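Single cells were lysed in plate wells, cDNA was made from poly(A) RNA by a template-switching reaction, and it was amplified over 22 PCR cycles, per the labels' protocols. No molecular identifiers were used, so PCR copies are counted as reads. The authors deposited read counts per gene and cell. GSNAP and featureCounts 1.6.2 with mm10 are named in the submitters' processing notes, and the table names Ensembl release 87. Strand and multiple-mapping settings are not given in the sources used here, so near-identical, overlapping and antisense genes are uncertain. The deposited length column gave gene models and entered no result.

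CPM was computed over 49671 Ensembl genes. The 92 spike-in rows (11.68% of counts) and 1 transgene row were left out. Kept cells had 116009 to 1680714 gene counts (median 280096). No doublet caller was run, since 1 cell was sorted per well, and no 2 cells had identical counts. Genes at 10 CPM in at least 10% of the compared cells were tested. Per gene, a linear model of log2(CPM/10 + 1) over low and high cells, with plate stratum and log2 genes detected, gave 1 difference per set. limma 3.58.1 tested their mean, weighted by cell numbers, with Benjamini-Hochberg adjustment (R 4.3.3). Cell-level measures had exact two-sided sign-flip tests over sets. edgeR 4.0.16 and DESeq2 1.42.0 on summed counts were alternatives. The fit was also run on simulated counts in which a gene's change was the same in every set. That setting leaves out changes that vary between sets, so no result here rests on it. The members, the 31 gene lists (638 entries, 4 matched by an older symbol) and the tests were chosen with earlier results of these data known. Named are the 10 smallest p per direction, since fewer than 10 genes passed, the 4 members with the highest mean CPM of each ER list and 2 of every other list, not all of which are reported here. ER members beyond these, HSC gate markers, and genes named for an extreme share or a promoter match were chosen after their values were seen. Sequences are from RefSeq (GRCm38.p6).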

Additional observations from a re-analysis of the deposited data

Results flagged for a closer look

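Among 99 groups of 6 per-set values examined, 8 held a set that stood far from the other 5, where chance gives about 1 in 20 (4.95). L29 HSC-4 stood high for Cul1 (1.99, others 0.86 to 1.22), Hsp90ab1 (2.22) and Atp5b (2.76), and nearest to 0 for Adgrd1 (-0.50). L32 HSC-2, with 4 low cells, stood high for Pdia4 (2.90) and low for Fkbp11 (-2.02) and Eif2s3y (-1.48). L32 HSC-5 stood high for Smc4 (1.09). The values are differences between Hspa5-high and Hspa5-low cells on the log2(CPM/10 + 1) scale.

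For the signal peptide peptidase gene H13, both sets of library series 29 were above 0 (1.13 and 1.73) and all 4 sets of series 32 were below 0 (-1.76 to -0.01). The mean of series 29 exceeded that of series 32 by 2.35, and this difference was not tested.

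The H2B-GFP transgene row, outside the comparison, had more than 3 reads in 4 cells although no animal was induced. The largest values were 126 reads in a low cell, 61 in a cell between the cuts and 22 in a high cell, and 4 in a cell under the read filter.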

How the results depend on the processing

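The count of 0 genes past an adjusted p of 0.05 was the same in all alternatives run except DESeq2 on summed counts, which called 1086 genes (1051 higher, 35 lower). Its adjusted p was 0.00118 to 0.04177 for 9 named genes (Isg20, Ptges3, Adgrd1, Rcn2, Phf21a, Sidt2, Bclaf3, Pdia3 and Fkbp11), which no other alternative called. DESeq2 and edgeR moved the median of all genes to 0.56 and 0.64 from 0.05, and the fit without genes detected moved it to 0.18, so their list medians are relative to those shifts. Without a set, the lowest adjusted p in limma was 0.321 to 0.5615. Over the other limma fits it was 0.0516 to 0.6464, and 0.527 without L29 HSC-4 and the cells over 6% mitochondrial reads, 1 of 3 alternatives added after seeing the data. The ER chaperone median became 0.71 with log2(CPM + 1). With gene reads per spike-in read and mitochondrial share as added covariates it was 0.36, from 0.48. In that fit isomerases stood at 0.21, translocation at 0.31 and N-glycosylation at 0.41. Degradation stood at 0.03, UPR factors at -0.12 and all genes at 0.03. The isomerase median became 0.54 with log2(CPM + 1), 0.67 with genes in at least 30% of cells and 0.55 without genes detected. The UPR median of -0.05 became 0.18 with that filter, 0.16 without genes detected, 0.0193 as a partial Spearman z, 0.54 in edgeR and 0.44 in DESeq2, so its sign depends on the setting; the cause was not tested. The medians of the other 3 ER lists stayed within their spread over sets in the fits of log2 levels. In edgeR, DESeq2 and the partial Spearman they were compared by sign only. The 4 cell-level measures were also compared by sign, and kept it. Of the 6 ER lists, 2 took the other sign under some setting (14 of 156 refits). ER-associated degradation was among them, at -0.11 in series 32 alone. Of the 21 lists outside the ER, 11 took the other sign under some setting (63 of 545 refits). HSC identity went from -0.11 to 0.16 without genes detected and 0.19 in series 29 alone, quiescence from -0.05 to 0.19 and G2 and M phase from -0.12 to 0.05 without genes detected, and lysosome and autophagy from 0.19 to -0.23 in series 32 alone. Differences of 42 of the 89 named genes took the other sign in 197 of 2299 refits; none had passed, so none counts as a reversal. The depth limits Hspa5-low cells most, since 10 CPM was 2.349 reads in their median cell. The gene differences and cell-level measures were taken within sets throughout, so no further block was fitted. Mean CPM over the cells of a class and shares of cells at 10 CPM pool the sets.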
